A study of Mus musculus with 4 samples.

Results

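The regions described here are the 5-hydroxymethylcytosine (5hmC) peaks that the authors assigned to noncoding transcripts. They were all rows of the deposited peak lists on chromosomes 1 to 19 whose transcript was a RefSeq noncoding RNA, grouped by gene symbol into microRNAs (symbols starting with Mir), small nucleolar RNAs (snoRNAs, symbols starting with Snor) and the rest, which were long noncoding RNAs (lncRNAs) and pseudogenes. There were 45 such peaks among the 1026 peaks of the day 0 list and 1884 among the 56102 peaks of the day 20 list. The microRNA symbols held 5 peaks at day 0 and 234 at day 20, the snoRNA symbols 0 and 1, and the rest 40 and 1649. Positions are in the mouse build GRCm38 (mm10).

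The series asked how 5hmC changes between progenitor and differentiated cells of ATDC5, a mouse chondrogenic cell line. There were 4 libraries of genomic DNA captured with a 5hmC enrichment kit: 2 of chondroprogenitors at day 0, and 2 of chondrocytes, whose labels give day 19 for 1 library and day 20 for the other. All cells grew in the same medium with serum and ascorbic acid, and the chondrocytes also received insulin, transferrin and selenite. Each stage was deposited as 1 list of merged peaks with positions, symbols and transcripts but no height or fold per peak, so no value per library was available, read depth was unknown and no difference between stages could be tested. A single cell line stands for chondrogenesis in these data, and a bulk peak cannot be traced to the share of cells that carry the mark.

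5hmC is made from 5-methylcytosine by the TET enzymes and is commonly found in gene bodies and enhancers of active genes. MicroRNAs are short RNAs that repress messenger RNAs through their seed, bases 2 to 8 from the 5′ end. snoRNAs guide the chemical modification of ribosomal RNA, and lncRNAs are long transcripts without a coding frame, some of which regulate neighbouring genes or host microRNAs and snoRNAs.

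The microRNA symbols fell into 2 kinds, and the mature sequences below show examples of both. For 33 symbols the peaks lay within 10 kb of the microRNA gene, and for 27 they lay on another chromosome or more than 10 kb away, called displaced here. A further 2 symbols, Mir1935 and Mir1957, could not be placed. RefSeq (GRCm38.p6) gave a mature sequence for 46 of the 62 symbols: 31 of the near and 15 of the displaced. The symbols not matched were Mir1935, Mir1957, Mir297-1, Mir297-2, Mir297c, Mir4660, Mir466d, Mir466f-1, Mir466f-3, Mir466g, Mir466n, Mir467c, Mir669a-9, Mir669e, Mir684-2 and Mirg. The first sequences are examples of microRNAs with peaks near their own gene, most of them well known. The last of them, Mir101c, lies at a site crowded with day 0 peaks, described below. Capitals mark the seed.
let-7a-5p (Mirlet7a-1): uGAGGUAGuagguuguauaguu
let-7c-5p (Mirlet7c-2): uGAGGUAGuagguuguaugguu
miR-100-5p (Mir100): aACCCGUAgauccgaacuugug
miR-125b-5p (Mir125b-2): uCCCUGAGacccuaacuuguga
miR-34a-5p (Mir34a): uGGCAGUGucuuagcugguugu
miR-26a-5p (Mir26a-1): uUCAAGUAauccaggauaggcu
miR-195a-5p (Mir195): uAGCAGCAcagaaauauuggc
miR-210-3p (Mir210): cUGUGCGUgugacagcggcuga
miR-193b-3p (Mir193b): aACUGGCCcacaaagucccgcu
miR-101c (Mir101c): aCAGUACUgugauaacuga

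The next sequences belong to symbols whose peaks were displaced, shown because their genes and peaks lie apart.
miR-1195 (Mir1195): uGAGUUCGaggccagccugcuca
miR-3473a (Mir3473): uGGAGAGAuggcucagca
miR-3470b (Mir3470b): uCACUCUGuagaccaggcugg
miR-3471 (Mir3471-1): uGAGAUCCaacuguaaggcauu
miR-1954 (Mir1954): aCUGCAGAgugagacccuguu
miR-3098-5p (Mir3098): uCCUAACAgcaggaguaggagc

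Among the members with a mature sequence, only Mirlet7a-1 and Mirlet7c-2 shared a seed, GAGGUAG on the 5p arm and UAUACAA on the 3p arm. Whole mature sequences were also searched, on both strands, in 31396 promoter windows of chromosomes 1 to 19, each running from 250 bases before to 50 bases after a gene's start. miR-3471 was found in 11 windows, miR-3470b in 10, miR-3473a in 9 and miR-680 (Mir680-2, displaced) in 1, so that 4 of the 15 displaced symbols had a match. Of the 31 near symbols 2 had one, Mir26a-1 and Mir5133, in 1 window each. Counted in the same way by gene, on all chromosomes, 38 of 1058 microRNA genes with a mature sequence had a match (3.59%).

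Noncoding transcripts took 8.67% of the day 0 peaks that had a transcript (45 of 519, Wilson 95% interval 6.54 to 11.4%) and 5.57% at day 20 (1884 of 33845, 5.33 to 5.82%). Without microRNA symbols the shares were 7.78% (5.77 to 10.4%) and 4.91% (4.68 to 5.15%). In 100 kb windows with fewer than 3 day 0 peaks it was 4.75% (21 of 442, 3.13 to 7.15%) at day 0 and 5.54% at day 20, a difference within counting error. Those windows were defined by the day 0 peaks themselves. Intervals cover counting error only, and peaks are not replicates of a stage. A snoRNA share of 0 of 519 at day 0 allows up to 0.578%.

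The 1884 day 20 peaks and 45 day 0 peaks carried 846 symbols, of which 837 had a day 20 peak, 27 a day 0 peak and 18 both. Most symbols were thinly marked: 53.8% of those in the day 20 list had 1 peak, 69 had 5 or more and 18 had 10 or more. By the type in the RefSeq gene table, lncRNA genes made up 1489 of the 1649 day 20 peaks of the rest. They had 685 symbols over both lists, and transcribed pseudogenes held 54 of the peaks. A further 91 day 20 peaks had a gene that the table now lists as coding (41 symbols over both lists). Among them were Gm16039 (now Umad1) with 11 peaks and 9430076C15Rik (now Creb5, a transcription factor gene) with 9. RIKEN clone symbols alone held 1048 peaks, or 63.6% of the rest.

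A smaller share of noncoding than of coding peaks lay within the gene they were named for. At day 20, 69.6% of noncoding peaks overlapped their own gene by at least 1 bp (67.5 to 71.7%), against 89.9% of coding peaks (89.5 to 90.2%) and 88.7% of all peaks with a transcript. At day 0 the share was 57.8% (26 of 45), against 83.4% of all. Within the rest it was 79.3% at day 20, and within the microRNA symbols 1.71% (4 of 234). The gene lay on another chromosome for 188 noncoding day 20 peaks (9.98%), against 0.567% of all peaks with a transcript and 4 of 31961 coding peaks. At day 0 it did for 2 of the 45 (4.44%), and these were the only such peaks among the 519 with a transcript (0.385%). Of those 188, 176 carried a microRNA symbol, which was 75.2% of all microRNA peaks at day 20 (69.3 to 80.3%).

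**Figure D1:**
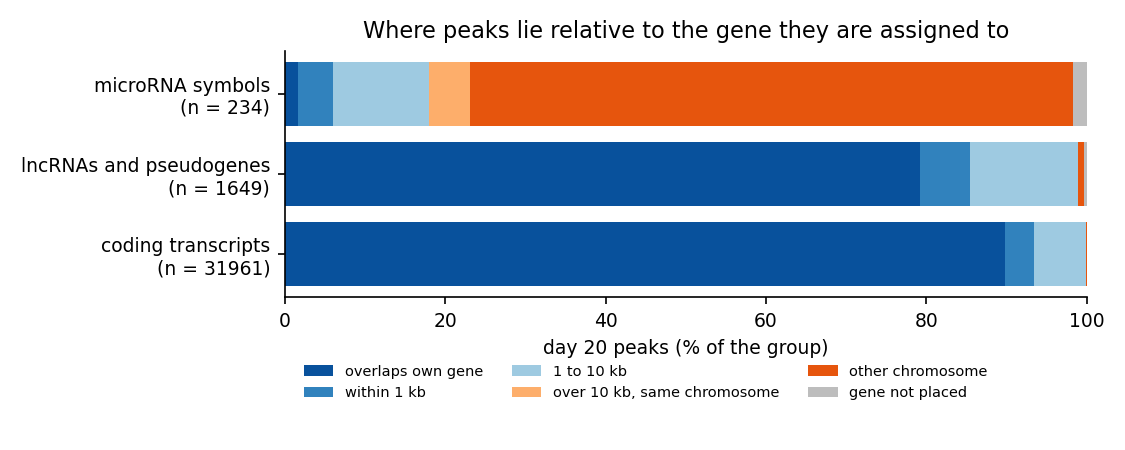
Share of day 20 peaks (x axis, percent of each group) by where the peak lay relative to the gene it was assigned to, for microRNA symbols, lncRNAs and pseudogenes, and coding transcripts. Most microRNA peaks (75.2%) lay on another chromosome than their gene, while 79.3% of lncRNA and pseudogene peaks and 89.9% of coding peaks overlapped their own gene.

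The displaced microRNA peaks lay in blocks. All 27 symbols had their peaks on 1 chromosome each, 188 peaks at day 20 (176 on another chromosome and 12 farther than 10 kb on the same one) and 2 at day 0. The 17 blocks with 3 or more day 20 peaks spanned 8.09 to 893 kb, with a median of 97.4 kb. In 12 of those 17 every day 20 peak within the span carried the block's own symbol. The spans of all 27 symbols also held 38 day 20 peaks of other symbols, 28 of them in the Mir1195 span. None of the 38 lacked a transcript, which allows a share of up to 7.89%, against 39.7% of all day 20 peaks. The spans were drawn between peaks chosen for carrying a transcript, and most of the 38 lay in 1 span. These shares are therefore no fair comparison. Genes on chromosome 2 gave 13 of the 27 symbols and 87 of the peaks. All of these genes but those of Mir1954 and Mir5128 lie together, within chr2:10466944-10514674.

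Mir1195 was the symbol with most displaced peaks. Its 45 day 20 peaks lay at chr16:30389204-31282066, while its gene is at chr17:70860503-70860600. This span also covers Lsg1, Fam43a, Xxylt1, a xylosyltransferase gene acting on Notch, Acap2 and Ppp1r2, and held 73 day 20 peaks in all. It contained the widest noncoding peak of either list, 2705 bp. Mir297c had 26 peaks at chr1:185535229-185989358, a span that held no coding gene and no day 20 peak of another symbol. Mir3098 had 13 day 20 peaks and 1 day 0 peak on chromosome 2, with its gene on chromosome 6. Mir4660 (now Mir466o) had 12 peaks on chromosome 12 and Mir1191 and Mir466n 6 each on chromosomes 5 and 11.

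Other blocks lay inside a coding gene. In all, 52 of the 188 displaced microRNA peaks did (27.7%), against 54.8% of all day 20 peaks. The latter share includes the peaks assigned to coding transcripts, so it is not a like background. The 17 peaks of Mir466g were all within Zfhx3, which encodes a large homeodomain transcription factor. The 10 peaks of Mir3473 were all within Dip2b, the 7 of Mir1954 within Fmn1, a formin gene, and the 5 of Mir466d within Camk1d, a calcium-dependent kinase gene. Of the 5 peaks of Mir3470b, 4 were within Shank2, a synaptic scaffold gene. The sources used here do not give the rule by which the authors named a transcript. These peaks are no measure of 5hmC at the microRNA genes.

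Outside microRNAs displacement covered 13 day 20 peaks of 6 symbols. Bc1, a short brain cytoplasmic RNA, had 6 of them. The others were pseudogene symbols whose peaks lay within a coding gene, and 3 of these 5 pseudogenes are named after that gene. The 2 peaks of Nutf2-ps1 were within Nutf2, a nuclear transport factor gene. The single peak of Atp6v0c-ps2 was within Atp6v0c, a proton pump subunit gene. That of Gm9855 (now Tdg-ps2) was within Tdg, the gene of a glycosylase that removes forms of 5-methylcytosine oxidised further than 5hmC. The peak of Gm7334 was within Btg3, and the 2 peaks of Gm5512 within Rmnd1.

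The 33 near microRNA symbols had 42 day 20 peaks of 294 to 2428 bp (median 587 bp). The median distance from the microRNA gene was 2250.5 bp and the largest 7704 bp. The authors' assignments within 10 kb reached 32 of 1136 microRNA genes in the RefSeq table (2.82%). By position alone, 3.70% of microRNA genes held a day 20 peak in their body, 10.7% had 1 within 1 kb and 32.4% within 5 kb. At day 0, 1 microRNA gene held a peak (0.0880%).

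The let-7 microRNAs restrain proliferation and rise during differentiation in many tissues. Mirlet7a-1 had day 20 peaks of 470 bp at 903 bp from the gene and of 375 bp at 1978 bp. Mirlet7c-2 had a peak of 2177 bp, among the widest of all noncoding peaks, at 6014 bp. Neither had a day 0 peak. Of the 10 let-7 genes listed, 2 had an assigned peak and 0 a peak in the gene body. A day 20 peak lay within 5 kb of 5, against 32.4% of all microRNA genes. Mirlet7a-1, Mirlet7d and Mirlet7f-1 lie together and share such peaks, so the 5 are not independent.

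Mir100 had the most near peaks, 4 of 375 to 597 bp, of which the 597 bp peak at chr9:41531379-41531975 overlapped the gene. Mir129-1 had 3 peaks, the nearest 691 bp away. Mir34a, a target of p53, had a peak of 810 bp at 1198 bp and one of 2428 bp at 5522 bp. Mir193b had peaks of 454 bp at 411 bp and 847 bp at 2338 bp, and Mir670 had 2 peaks, the nearer at 4465 bp. The microRNA genes that lay under a peak named for them were Mir100, Mir195 and Mir26a-1. The peak of Mir195 spanned 1292 bp, and that of Mir26a-1 spanned 940 bp inside its host gene Ctdspl. The fourth overlapping peak in this group was that of Mirg, a lncRNA gene that the symbol rule placed with the microRNAs. Its peak spanned 1382 bp, in the imprinted Dlk1-Dio3 region.

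Of the 48 microRNAs listed as often studied in cartilage and bone, 6 had an assigned day 20 peak (12.5%, against 2.82% of microRNA genes) and 0 a day 0 peak. These included Mir210, which hypoxia induces, with a peak of 552 bp at 520 bp, Mir23a at 3832 bp and Mir125b-2 at 2161 bp. By position 27 of the 48 (56.3%) had a day 20 peak within 5 kb, against 32.4% of all microRNA genes, and 1 had a peak in its body. Several of those peaks carried the symbol of a coding host and so were not counted as noncoding. Mir140, the microRNA most tied to cartilage, lay 535 bp from a peak of 1349 bp named for its host Wwp2. Mir455 lay 220 bp from a peak of 723 bp named for its host Col27a1, a fibrillar collagen gene, and Mir199b lay 289 bp from a peak of 1545 bp named for Dnm1. Mir214 lay 141 bp from a peak of 299 bp named for its noncoding host Dnm3os, a lncRNA needed for normal skeletal growth. Neighbouring microRNAs share peaks, so these counts are not independent. The list was chosen with earlier results of these data known, so these shares are no test of enrichment.

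At day 0 there were 3 microRNA symbols with peaks. Mir101c had peaks of 58, 81 and 90 bp, with 53 other day 0 peaks within 100 kb of each. It also had a day 20 peak of 581 bp that overlapped the wider 2. Whether reads from other places in the genome contribute at so crowded a site was not tested. Mir3098 and Mir297-2 had 1 displaced day 0 peak each, of 124 and 129 bp. The single snoRNA peak was that of Snord17, 533 bp at chr2:144265898-144266430, which overlapped the snoRNA gene within its host Snx5, a sorting nexin gene. The authors' assignments thus reached 1 of 1286 snoRNA genes (0.0778%), while by position 19 held a day 20 peak in their body (1.48%). Among 18 listed snoRNA host genes 7 had an assigned day 20 peak, 1 each, including Snhg3 (730 bp), Snhg12 (537 bp) and Snhg17 (408 bp). The widest was that of Snhg20, 2410 bp at 585 bp from the gene. Of the 18, 7 is 38.9%, against 21.6% of lncRNA genes with a RefSeq noncoding transcript. By position the order was the other way. Of the 18, 2 (11.1%) held a peak in the gene body, against 34.6%, and 8 (44.4%) had 1 within 5 kb, against 51.4%. This list was chosen with earlier results of these data known and was not matched for gene length.

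Among the lncRNAs and pseudogenes, 12 symbols had 10 or more day 20 peaks and together held 184 peaks (11.2% of the rest), 179 of them in the gene's own body. Their genes were 117 to 432 kb long. The longest run was at 2610307P16Rik, on chromosome 13 at 63.5 kb from Sox4, a transcription factor gene of progenitor cells. It had 32 peaks of 191 to 1107 bp, 31 of them in the gene, over 425 kb. A930011G23Rik, beside Rasgef1b, had 21 peaks in 432 kb.

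Pvt1 lies 47.6 kb from the Myc oncogene and is often gained with it in tumours. It had 18 day 20 peaks of 343 to 1692 bp, with a median of 666 bp. Pvt1 was also one of few long lncRNAs with day 0 peaks, of 308 and 136 bp, and the wider of these lay within a day 20 peak of 685 bp.

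The lncRNA 2610035D17Rik lies between Sox9, the transcription factor that directs chondrocyte fate, 256 kb away, and Slc39a11. Its 17 day 20 peaks had a median width of 1112 bp, the highest of the 12 symbols, whose lowest was 431 bp at Gm13483. The narrowest of its peaks spanned 586 bp, close to the median of 592 bp over all day 20 peaks. All 17 lay in the gene, at 10.8 peaks per 100 kb. It had no day 0 peak.

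9130019P16Rik had 15 peaks, and its gene overlaps Chn2, Prr15 and Wipf3. Gm14005 (now Morrbid, which controls Bcl2l11 in myeloid cells) had 13 peaks, and 2210408F21Rik, near Mkln1, also had 13. 6030407O03Rik, near Tns1, had 12 peaks and included the second widest noncoding peak, 2668 bp. Airn is the imprinted lncRNA that silences Igf2r. It had 11 day 20 peaks of 473 to 1246 bp and a day 0 peak of 184 bp that did not overlap them. LOC627800 had 10 peaks.

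The 8 other symbols in the top 20 had 8 or 9 peaks each. A530065N20, 57.7 kb from the hedgehog co-receptor gene Gas1, had 9 peaks that all spanned 605 bp or more. D830013O20Rik had 9 peaks at 15.4 peaks per 100 kb in its body, the highest density of the 20. 1600002D24Rik lies between Ets2 and Psmg1 and had 9, and 9530026P05Rik, which overlaps the aggrecanase gene Adamts9, also had 9. Gm12216, 7.12 kb from the interferon factor gene Irf1, had 8 peaks, up to 2136 bp wide. 1700060C16Rik, 177 kb from the Sox9 partner gene Sox5, had 8 peaks at 13.8 per 100 kb. 8030442B05Rik, between Prkcq and Pfkfb3, had 8 of 513 to 857 bp. No link between a lncRNA and its neighbour was tested.

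**Figure D2:**
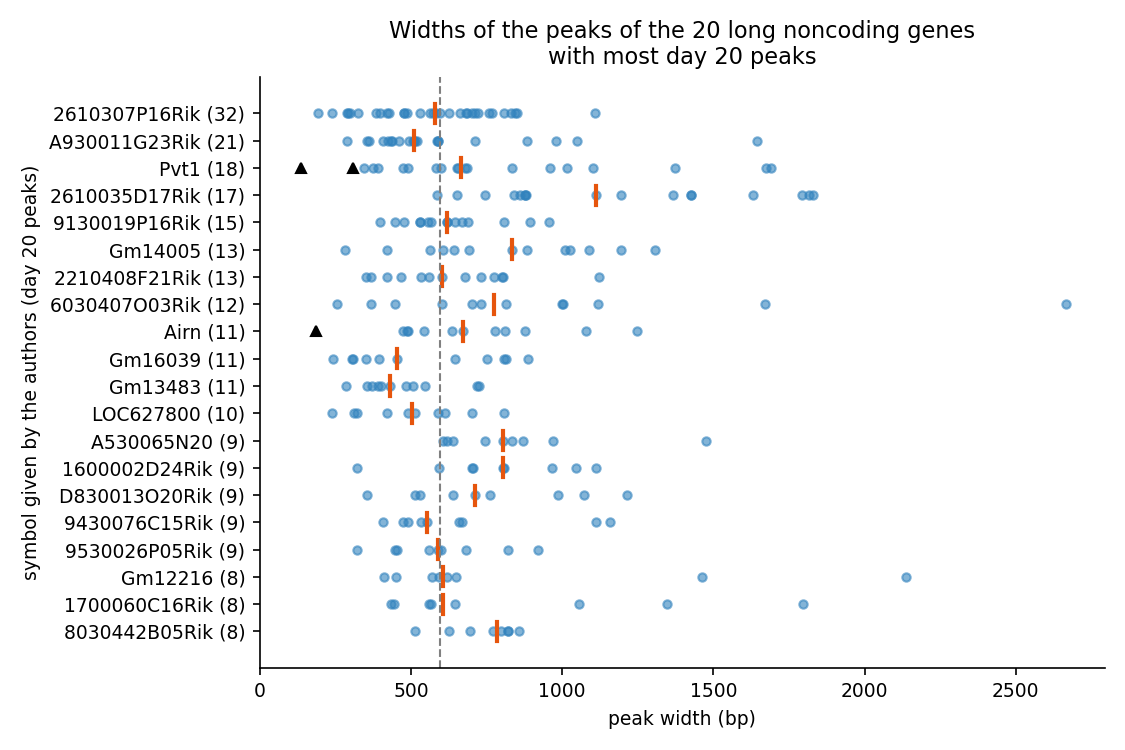
Width in bp (x axis) of each peak of the 20 lncRNA and pseudogene symbols with most day 20 peaks (rows, with their number). Among the 20, Gm16039 and 9430076C15Rik have genes now listed as coding. Circles are day 20 peaks, orange bars their medians, black triangles day 0 peaks, and the dashed line the median of all lncRNA and pseudogene day 20 peaks (595 bp). 2610035D17Rik has the highest median, 1112 bp, and day 0 peaks appear at Pvt1 and Airn alone among these 20.

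Of 37 named lncRNAs listed for their known roles, 17 had an assigned day 20 peak, 65 peaks in all, and 3 had a day 0 peak (Airn, Pvt1 and Tug1). This was 45.9%, against 21.6% of the 3221 lncRNA genes with a RefSeq noncoding transcript. By peaks in the gene body it was also 17 of 37, against 34.6%, and within 5 kb 24 of 37 (64.9%) against 51.4%. Gene length was not matched, and among all such lncRNA genes the share with a peak in the body rose with length. It was 19.4% under 5 kb and 56.5% at 50 kb or more. The list was chosen with earlier results of these data known, so these shares are no test of enrichment. Sox2ot, which overlaps the pluripotency gene Sox2, had 6 peaks, Mirt1 5, Crnde 4 and Dlx6os1, at the Dlx5 and Dlx6 limb genes, 4. Miat had 3 peaks, the widest 1885 bp, and Neat1, the scaffold of paraspeckles, had 1 of 1769 bp. Fendrr, a lncRNA of the lateral mesoderm, had 2, and Dnm3os, Kcnq1ot1 and Rmst had 1 each. Tug1 had a day 0 peak of 77 bp and no day 20 peak. Lncpint had no assigned peak although 8 day 20 peaks lay in its body. In the imprinted Dlk1-Dio3 region 2 of 41 noncoding genes had an assigned peak, Rian (476 bp, 815 bp from the gene) and Mirg (4.88%), and 12 had a day 20 peak within 5 kb (29.3%). Nearly all of the 41 are microRNA genes, for which the shares over the whole table were 2.82% and 32.4%, so both counts were near that background. Meg3, the region's best known lncRNA, had none.

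Among short genes the share with a day 20 peak was higher for lncRNA than for coding genes, and among long genes it was lower. In genes under 5 kb the share with a peak in the body was 19.4% for lncRNAs (17.1 to 21.9%) and 7.90% for coding genes (7.15 to 8.72%). In genes of 50 kb or more it was 56.5% (50.9 to 61.9%) and 79.2% (78.0 to 80.3%). Peak density in lncRNA bodies outside coding genes was 30.0 per Mb at day 20, against 30.9 in coding bodies and 22.9 over chromosomes 1 to 19. At day 0 these densities were 0.444, 0.458 and 0.419 per Mb. Transcribed pseudogenes held a day 20 peak in 10.8% of 435 genes and a day 0 peak in 1.84% (0.935 to 3.59%). The day 0 share was 0.869% for the lncRNA genes (0.602 to 1.25%) and 1.82% for coding genes, and the pseudogene interval holds the latter and overlaps the lncRNA one.

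A larger share of lncRNA than of coding peaks lay close to a transcription start. Of the 1489 day 20 peaks with a lncRNA-type gene, 1174 had a start in the RefSeq promoter table. The peak midpoint was within 1 kb of the nearest start for 10.6% (9.01 to 12.5%), against 6.27% of coding peaks (5.97 to 6.57%) and 6.46% of both together. The first 1 kb downstream held 7.07% and 3.04%. More than 20 kb downstream lay 30.9% of lncRNA and 53.2% of coding peaks, and coding genes are longer. Of the 17 day 0 lncRNA peaks with a start, 0 lay within 1 kb, which allows a share of up to 18.4%. The share was 3.71% of coding and lncRNA day 0 peaks together, so no difference is shown.

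**Figure D3:**
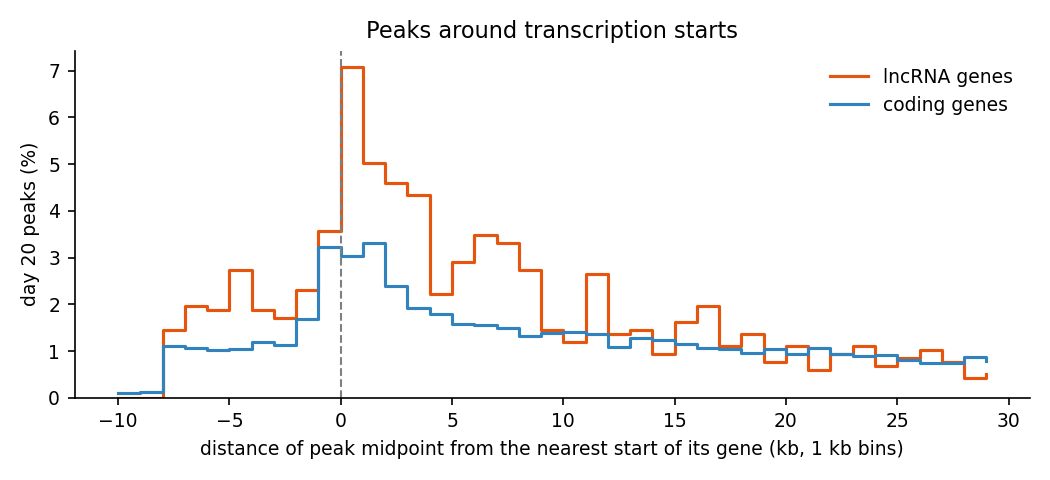
Percent of day 20 peaks (y axis) by distance of the peak midpoint from the nearest start of its gene (x axis, kb, 1 kb bins, negative upstream), for lncRNA and coding genes. Only distances from 10 kb upstream to 30 kb downstream are drawn. The lncRNA line is highest in the first bin downstream, at 7.07%, where the coding line is at 3.04%.

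Promoter windows gave the same order. A day 20 peak overlapped the 300 bp window of 6.54% of 11311 lncRNA starts, 3.93% of 20085 coding starts and 4.87% of all. For lncRNA genes that had an assigned peak it was 12.2% (71 of 584, 9.75 to 15.1%), a group that was chosen by having a peak. No such window had a day 0 peak, against 0.0478% of all, a share so low that 584 windows cannot show a difference. The day 20 share differed with the number of CG dinucleotides, the site of methylation, counted as CG on 1 strand, which is the same on both. In these 584 windows a peak overlapped 8.33% with 0 to 2 CG, 14.9% with 3 to 5, 21.6% with 6 to 11 (15.5 to 29.4%) and 3.87% with 12 or more (1.79 to 8.19%). All lncRNA windows had 3.93, 8.11, 10.7 and 3.29% in the same order, and coding windows 1.96, 7.06, 7.62 and 2.77%. At least 1 CG was present in 94.8% of all windows.

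**Figure D4:**
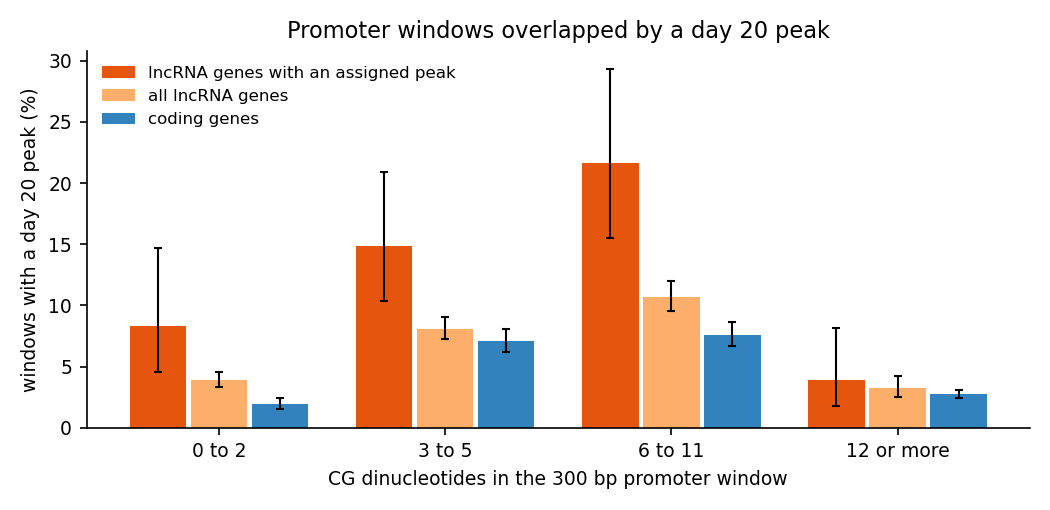
Percent of 300 bp promoter windows overlapped by a day 20 peak (y axis) by number of CG dinucleotides in the window (x axis), with Wilson 95% intervals, for lncRNA genes with an assigned peak, all lncRNA genes and coding genes. In all groups the bar is highest at 6 to 11 CG (21.6, 10.7 and 7.62%) and lower at 12 or more.

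The promoters below show windows from each class of CG number, all lying whole within a day 20 peak, in RefSeq GRCm38.p6, 5′ to 3′ on the gene's strand, with each CG in capitals. They were chosen after their values were seen. Mir99ahg and Mir100hg are known as hosts of the Mir99a, Mirlet7c-1, Mir125b-2 and of the Mir100, Mirlet7a-2, Mir125b-1 microRNAs, although in the gene table Mir99ahg ends before all of the first set. They carried the older symbols 2810055G20Rik and 3110039I08Rik in the lists. The Mir99ahg window, chr16:77329078-77329377, plus strand, has 8 CG under a peak of 358 bp. That of Mir100hg, chr9:41376276-41376575, plus strand, has 15 CG under a peak of 682 bp. The window of 2310015D24Rik, chr16:13521058-13521357, minus strand, has 7 CG under a peak of 2241 bp, one of the widest noncoding peaks. The window of 2310040G24Rik, chr6:86488178-86488477, minus strand, has 3 CG under a peak of 1306 bp. That of Gm8883, chr1:71887862-71888161, plus strand, has 1 CG under a peak of 1313 bp.
Mir99ahg: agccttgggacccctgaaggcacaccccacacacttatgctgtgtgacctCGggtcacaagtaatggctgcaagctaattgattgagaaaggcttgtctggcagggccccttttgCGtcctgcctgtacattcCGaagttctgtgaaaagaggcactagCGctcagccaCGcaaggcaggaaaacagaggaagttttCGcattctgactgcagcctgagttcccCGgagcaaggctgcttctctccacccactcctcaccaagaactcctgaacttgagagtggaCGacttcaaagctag
Mir100hg: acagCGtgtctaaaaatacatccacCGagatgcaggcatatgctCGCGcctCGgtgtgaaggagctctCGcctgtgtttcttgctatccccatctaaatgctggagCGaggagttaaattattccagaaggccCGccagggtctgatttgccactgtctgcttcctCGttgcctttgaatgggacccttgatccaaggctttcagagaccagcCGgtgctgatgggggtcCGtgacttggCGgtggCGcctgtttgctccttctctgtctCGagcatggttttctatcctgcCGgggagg
2310015D24Rik: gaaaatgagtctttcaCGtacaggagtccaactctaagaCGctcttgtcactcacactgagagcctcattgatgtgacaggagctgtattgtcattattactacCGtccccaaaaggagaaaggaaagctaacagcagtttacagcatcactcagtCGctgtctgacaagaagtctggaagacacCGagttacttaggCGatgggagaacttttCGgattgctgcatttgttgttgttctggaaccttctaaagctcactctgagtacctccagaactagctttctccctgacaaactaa
2310040G24Rik: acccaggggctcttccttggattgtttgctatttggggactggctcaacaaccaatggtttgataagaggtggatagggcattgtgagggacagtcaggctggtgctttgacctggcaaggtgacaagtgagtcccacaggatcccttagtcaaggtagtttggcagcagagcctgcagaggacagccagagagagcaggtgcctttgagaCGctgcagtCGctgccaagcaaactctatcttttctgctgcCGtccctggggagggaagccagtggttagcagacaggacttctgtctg
Gm8883: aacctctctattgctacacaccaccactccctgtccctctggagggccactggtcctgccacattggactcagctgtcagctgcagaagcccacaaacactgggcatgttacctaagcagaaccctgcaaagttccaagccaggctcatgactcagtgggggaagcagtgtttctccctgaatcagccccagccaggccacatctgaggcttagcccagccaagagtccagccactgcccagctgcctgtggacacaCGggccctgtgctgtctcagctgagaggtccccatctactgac

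At day 0 lncRNA genes were again the largest type, with 20 of the 45 peaks (44.4%), against 1490 of 1884 at day 20 (79.1%). Transcribed pseudogenes held 15 of the 45 (33.3%, 21.4 to 47.9%), against 54 of 1884 at day 20 (2.87%, 2.20 to 3.72%). Pisd-ps1 and Pisd-ps2, pseudogenes of a phosphatidylserine decarboxylase gene, had 10 of these 15 peaks, 5 each, of 73 to 487 bp and 87 to 250 bp. Speer7-ps1 and 6820431F20Rik had 2 each and 2610005L07Rik 1. Rn45s, the ribosomal RNA precursor, had 3 peaks of 352, 963 and 1301 bp, the last 2 being the widest noncoding peaks at day 0. These genes have near-identical copies, so the reads behind their peaks may belong to other copies and their positions are uncertain.

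Day 0 noncoding peaks were also crowded. Of the 45, 26 (57.8%) had at least 2 other day 0 peaks within 100 kb, against 14.98% of coding peaks and 25.0% of all day 0 peaks. Each Mir101c peak had 53 such neighbours, Pisd-ps1 28, 2700054A10Rik 6 and Pisd-ps2 5. Members at the same site count as neighbours of each other, so the 26 are not independent and come from fewer sites. At the other end 15 members had none, among them Tug1 (77 bp), Airn (184 bp), Gm9899 (181 bp) and E330012B07Rik (130 bp). Of the lncRNA symbols only 2700054A10Rik, with 3 peaks of 78 to 130 bp, Pvt1 and 2310040G24Rik had more than 1 day 0 peak.

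A position shared by both stages (1 bp of overlap or more) was found for 20 of the 45 day 0 members (44.4%, 30.9 to 58.8%), against 51.1% of coding and 49.9% of all day 0 peaks. Seen from day 20, 16 of 1884 did (0.849%), against 0.834% of all. These shares differ from their background by less than their intervals. The 20 pairs involve 16 day 20 peaks, since some day 20 peaks overlapped more than 1 day 0 peak, so the pairs are not independent. In all 20 pairs the day 20 peak bore the same symbol. It was wider in 18, with a median ratio of 5.21, near the 4.74 over all 512 pairs and the 4.72 over coding pairs. Gm4262 had the largest noncoding ratio, 10.2, from 133 to 1361 bp, and Gm9899 had 181 and 960 bp. The 4 pairs of Pisd-ps2 had ratios of 4.61 to 8.81, and all but that at 4.61 share 1 day 20 peak of 1278 bp. Rn45s stood apart with ratios of 0.672, 0.829 and 1.22, and it gave the only pairs with a narrower day 20 peak among the 512 pairs of the whole lists. Without it the noncoding median was 5.82 over 17 pairs.

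**Figure D5:**
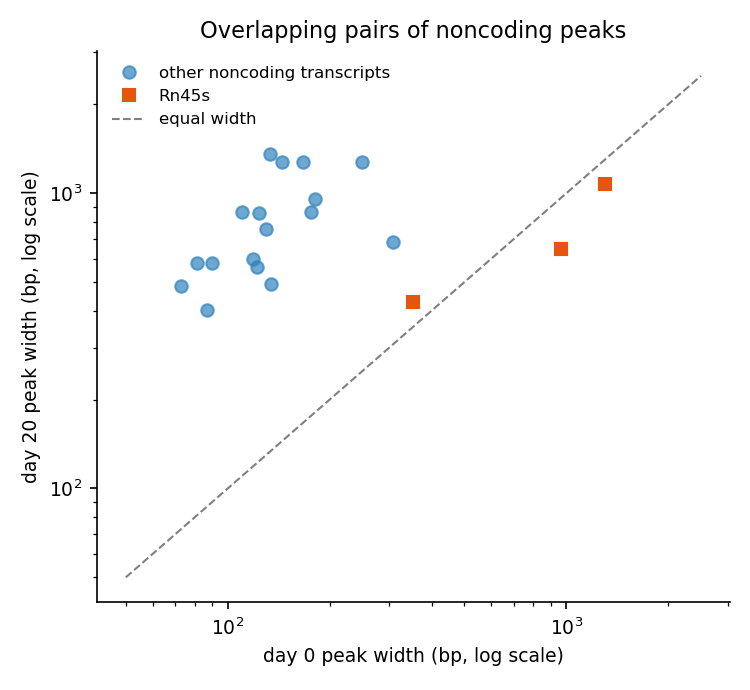
Width of the day 20 peak (y axis, bp, log scale) against the width of the day 0 peak it overlapped (x axis, bp, log scale) for the 20 noncoding pairs, with the dashed line at equal width. The 3 Rn45s pairs lie near the line (ratios 0.672 to 1.22), and the other 17 lie above it, at ratios of 2.22 to 10.2.

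Noncoding peaks had nearly the widths of other peaks. The median was 130 bp at day 0 (quartiles 110 and 181 bp), against 138.5 bp for coding peaks, and 595 bp at day 20 (469 and 794 bp), against 602 bp. Behind the Mir1195 and 6030407O03Rik peaks, the widest at day 20 were those of Gm5122 (2619 bp, 295 bp from the gene), Gm2176 (2511 bp) and again Mir1195 (2503 bp). Inside a coding gene body lay 19.2% of noncoding day 20 peaks, against 54.8% of all, and 6.67% at day 0, against 44.0%. Members were chosen for a noncoding transcript, and 90.1% of day 20 peaks with a coding transcript lay in such a body. The rule itself thus favours low shares.

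By chromosome, noncoding symbols took 3.26% (chromosome 4) to 9.27% (chromosome 16) of the day 20 peaks with a transcript. On chromosome 16, 48 of the 115 noncoding peaks carried a microRNA symbol, 45 of them Mir1195. Chromosome 13 was next at 8.59% (7.29 to 10.1%), with 2 microRNA peaks among 131, and it holds 2610307P16Rik with its 32 peaks.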

How the data were processed

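The values deposited by the authors were peak positions (start and end in bp), gene symbols and transcripts, of no other unit; per the file headers each list was made from merged samples and kept peaks past a 10-fold threshold. Not given in the sources used here are what the fold is relative to, how transcripts were assigned and whether the day 19 library entered the day 20 list. The submitters' processing notes name FastQC, cutadapt, BWA, MACS 1.4.2 and the build GRCm38 (mm10) without saying what each was used for. In the day 20 list 3 entries lacked a readable position and were left out, none noncoding.

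Genes and sequences came from RefSeq GRCm38.p6 (49997 placed genes, without exons). Transcripts were matched by identifier, then symbol, then older symbol: 41 of 45 noncoding peaks at day 0 and 1875 of 1884 at day 20 had a match. Shares have Wilson 95% intervals. No test was run, since there was 1 list per stage. Overlap and matching were checked on simulated data.

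Named genes were the microRNAs and snoRNAs with most peaks, the 20 others with most day 20 peaks, those with shared or several day 0 peaks, the 5 widest peaks per list and members of 5 gene lists; any others were picked with their values already known. The members and lists were chosen with earlier results of these data known. Python 3.11.15 was used, with numpy 2.4.6, pandas 2.3.3, scipy 1.17.1 and matplotlib 3.10.9.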

Additional observations from a re-analysis of the deposited data

Results flagged for a closer look

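Noncoding peaks also lay outside chromosomes 1 to 19, which the comparisons above did not use. The day 20 list held 33 of them among the 593 peaks there (5.56%), against 3.36% on chromosomes 1 to 19. At day 0 there was 1 among 24, that of 3632454L22Rik, against 4.39%.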

How the results depend on the processing

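No paired analysis was possible because each stage was deposited as 1 merged list. For the same reason no replicate could be left out. Of 35 alternative values 22 stayed within the interval, quartiles or factor of 1.5 of the value reported and 13 moved. Keeping peaks of at least 176 bp, the narrowest day 20 width, left 13 noncoding peaks at day 0. Counting peaks in a noncoding and no coding gene body gave shares of 19.8% at day 0 and 15.4% at day 20. Without 100 kb windows of 3 or more day 0 peaks the day 0 share was 4.75% (3.13 to 7.15%), an interval that holds the 5.54% of day 20. Without displaced microRNA peaks the day 20 share was 5.04% and the share overlapping their own gene 77.4%. Allowing 1 kb raised the latter from 69.6 to 75.6%, and 10 kb to 88.9% at day 20 and 86.7% at day 0. lncRNA genes with a day 20 peak went from 21.6% by assignment to 34.6% by body and 51.4% within 5 kb. MicroRNA genes went from 2.82% to 10.7% within 1 kb and 32.4% within 5 kb. The alternatives without displaced peaks, without Rn45s and, for shares of noncoding peaks, without crowded windows were chosen after seeing the data. The share of day 0 peaks found again at day 20 ranged from 40.5 to 55.6%. Depth is unknown, so an absent peak does not show absent 5hmC.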
